A study of Mus musculus with 6 samples.

Results

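Wfs1 and 9 genes of the endoplasmic reticulum (ER) stress response were followed in the ventral midbrain of mice labelled Bach1 knockout or wild type. The question was whether the lower Wfs1 level on the knockout-labelled arrays came with any change in the ER stress program. Wfs1 was selected on its measured difference between these same arrays, so that difference is given as a description without a test. The other 9 (Hspa5, Hsp90b1, Xbp1, Atf4, Atf6, Ddit3, Herpud1, Sdf2l1 and Trib3) were named for their roles in ER stress, also with earlier results of these arrays known. All 10 were measured, out of 22180 genes with a probe set of their own. Each had a single probe set, so the choice of the brightest probe set per gene did not come into play.

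Total RNA of the ventral midbrain, home of the brain's main dopamine neurons, was hybridised to 6 Affymetrix mouse arrays. The groups were 3 arrays from Bach1 knockout mice and 3 from wild-type mice, all male and 2 months of age. BACH1 is a heme-binding repressor of antioxidant and iron genes. The structure of the knockout allele, the strain and whether replicates were separate animals are not given in the sources used here, so the tests see only the variation among these samples, which may be technical. Values are log2 levels after robust multi-array averaging (RMA), on which a step of 1 is a doubling of signal. Array medians lay between 5.58 and 5.69, each knockout-labelled one above each wild-type one. The Bach1 probe set was not lower on the knockout-labelled arrays (7.66 ± 0.058 against 7.54 ± 0.068, SD, n = 3), so directions follow the labels. Hmox1, the heme oxygenase gene that BACH1 represses, was 3.85-fold higher there (limma, adjusted p = 0.0181), a call that was lost when any 1 array was left out. Of the tissue's dopamine neuron markers, 16 of 16 exceeded the level that separates off the dimmest 40% of probe sets (5.07), as did 15790 of all 22180 genes. Th, which encodes tyrosine hydroxylase, was at means of 11.30 in the knockout-labelled group and 11.16 in wild type.

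The ER folds secreted and membrane proteins, and unfolded protein there is sensed by IRE1, PERK and ATF6. IRE1 splices Xbp1 mRNA, PERK phosphorylates the translation factor eIF2α and so raises ATF4 translation, and cleaved ATF6 enters the nucleus. Together these raise ER chaperones, components of ER-associated degradation and, under lasting stress, the factor CHOP (Ddit3). Wfs1 encodes wolframin, an ER membrane protein mutated in Wolfram syndrome, a disease of diabetes and neurodegeneration. Wolframin is known to restrain ATF6 and to affect ER calcium, and its mRNA is known to be abundant in striatal, CA1 and upper cortical neurons. Much of the response is set by splicing, cleavage, phosphorylation and translation, which these arrays do not measure.

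Promoters of some genes of this response carry known ER stress elements. Those of Hspa5, Hsp90b1 and Herpud1 are shown because they hold one, and that of Wfs1 because the results turn on it. The windows of RefSeq (GRCm38.p6) that run from 250 bases before to 50 bases after a gene's start were searched on both strands, and 9 of the 10 genes had such a window. ER stress element I is CCAAT and CCACG separated by 9 bases, and element II is ATTGG and CCACG separated by 1 base. The site shared by CHOP and ATF4 was searched as TGATGNAA. In the sequences below, given 5′ to 3′ on the gene's strand up to the start site, capitals mark the fixed letters of these elements.

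Hspa5 (chr2:34771840-34772089, plus strand): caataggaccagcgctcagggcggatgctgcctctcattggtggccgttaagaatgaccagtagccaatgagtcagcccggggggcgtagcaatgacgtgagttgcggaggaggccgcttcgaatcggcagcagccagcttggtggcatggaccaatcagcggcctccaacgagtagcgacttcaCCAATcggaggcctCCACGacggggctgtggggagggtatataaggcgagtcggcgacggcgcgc

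Hsp90b1 (chr10:86705445-86705694, minus strand): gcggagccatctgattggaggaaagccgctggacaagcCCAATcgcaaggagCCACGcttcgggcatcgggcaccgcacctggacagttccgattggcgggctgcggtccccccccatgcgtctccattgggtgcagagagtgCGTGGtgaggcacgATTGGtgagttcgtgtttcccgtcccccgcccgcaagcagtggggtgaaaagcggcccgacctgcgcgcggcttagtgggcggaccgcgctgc

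Herpud1 (chr8:94386179-94386428, plus strand): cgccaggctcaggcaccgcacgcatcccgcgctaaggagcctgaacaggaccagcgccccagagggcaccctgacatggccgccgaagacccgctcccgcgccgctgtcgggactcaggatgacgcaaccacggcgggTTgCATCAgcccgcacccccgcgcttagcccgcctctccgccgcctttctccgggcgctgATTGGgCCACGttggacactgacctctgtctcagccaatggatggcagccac

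Wfs1 (chr5:36988983-36989232, minus strand): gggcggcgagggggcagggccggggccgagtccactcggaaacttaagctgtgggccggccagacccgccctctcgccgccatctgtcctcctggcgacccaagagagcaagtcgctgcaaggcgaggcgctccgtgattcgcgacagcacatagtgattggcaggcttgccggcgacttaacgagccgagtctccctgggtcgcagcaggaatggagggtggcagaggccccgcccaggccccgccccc

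Element I was found in Hspa5 (65 to 47 bases before the start) and at 2 places in Hsp90b1, in opposite orientations. Over 27025 windows, 1 per gene, 0.13% held it. Element II was found in Herpud1 (52 to 42 bases before the start), as in 0.037% of windows. The CHOP and ATF4 site was found in Herpud1 upstream and in Trib3 just after the start, as in 4.06% of windows. The Wfs1 window held none of these letters, and the Sdf2l1 window held neither ER stress element. The Maf recognition core TGACTCAGC, the kind of site that BACH1 binds with small Maf proteins, was in 0 of the 9 windows and in 0.426% of all windows. Its variant TGAGTCAGC, with G for the first C, was not searched and occurs in the Hspa5 sequence above. The looser antioxidant core TGACNNNGC was in 2 of the 9, Herpud1 and Sdf2l1, and in 12.5% of all windows; any stretch that fits the first of these cores fits the second too. These are matches of letters and were not measured as binding sites.

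Wfs1 was lower on every knockout-labelled array than on every wild-type array. Its log2 level was 9.39, 9.44 and 9.36 in the knockout-labelled group, replicates 1, 2 and 3 in turn, against 9.71, 9.92 and 9.77 in wild type. The group means were 9.39 ± 0.041 and 9.80 ± 0.10 (SD, n = 3 each), a log2 difference of -0.41 or 24.6% less signal. The gap between the highest knockout-labelled and the lowest wild-type array was 0.28. The difference ranged from -0.45 to -0.35 when any single array was left out. Of all 22180 genes, 1.4% had a lower difference, which places Wfs1 at rank 311, and among the 11090 genes in the brighter part of the range 87 did. The gap, the range with arrays left out and these ranks come from the values on which Wfs1 was selected. They describe that selection and support nothing beyond it. In whole tissue, fewer cells that express Wfs1 and less Wfs1 RNA per cell cannot be told apart.

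**Figure D1:**
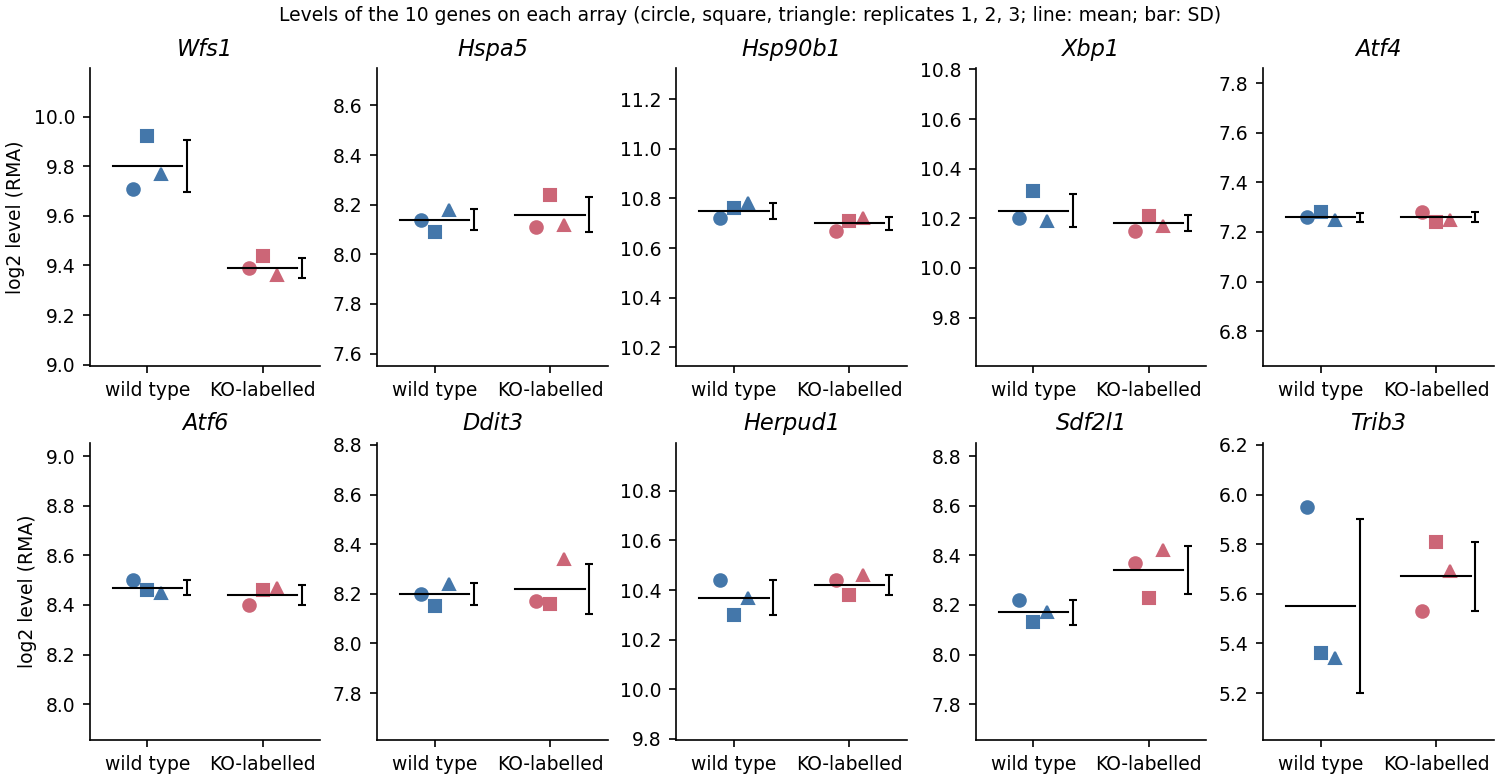
Log2 RMA level (vertical axes, each spanning the same range) of the 10 genes on the 3 wild-type (blue) and 3 knockout-labelled (red) arrays; symbols are replicates, lines means and bars SD. Wfs1 sits at 9.36 to 9.44 in the knockout-labelled group and 9.71 to 9.92 in wild type, while 8 of the other 9 genes overlap between the groups and Sdf2l1 is slightly higher on the knockout-labelled arrays.

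None of the 9 ER stress genes passed the test. They were compared with limma, fitted over all 41345 probe sets with Benjamini-Hochberg adjustment, and a probe set was called at an adjusted p under 0.05. Limma called 0 of the 9, against 0.00726% of all probe sets, and the smallest adjusted p among them was 0.652 (Sdf2l1). At an unadjusted p under 0.05 there were also 0 of 9, against 8.27% of all probe sets and 1443 of 22180 genes. The groups did not overlap for 1 of the 9, against 14.3% of genes. Because the 9 were named with this contrast known, nothing is read from these shares. Group means of the knockout-labelled arrays exceeded wild type for 5 of the 9 and fell short for 4, and the median difference was 0.019 beside -0.0098 over all genes. That split was 7 and 2 after renewed quantile normalization and 3 and 6 with arrays centred on their medians, so no direction can be given for the set.

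The transcription factors of the response had nearly equal means. Atf6, whose protein is an ER stress sensor, was at 8.40, 8.46 and 8.47 on the knockout-labelled and 8.50, 8.46 and 8.45 on the wild-type arrays. The values interleave, and the difference was -0.025 (limma, 95% interval -0.20 to 0.15). Xbp1, the target of IRE1 splicing, was at 10.15, 10.21 and 10.17 against 10.20, 10.31 and 10.19. Wild-type replicate 2 was the highest array, the other wild-type arrays lay among the knockout-labelled ones, and the difference was -0.060 (95% interval -0.25 to 0.13). Xbp1 has a single deposited value per array, which does not separate its spliced from its unspliced mRNA.

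Atf4, the factor raised in translation by eIF2α phosphorylation, was the tightest of the 10 genes. Its level was 7.28, 7.24 and 7.25 on the knockout-labelled and 7.26, 7.28 and 7.25 on the wild-type arrays. All 6 arrays lay within a narrow band, and the difference was -0.0039 (limma, 95% interval -0.18 to 0.17). Ddit3, which encodes CHOP, was at 8.17, 8.16 and 8.34 against 8.20, 8.15 and 8.24. Knockout-labelled replicate 3 was the highest array and the others were mixed in order, with a difference of 0.024 (95% interval -0.19 to 0.24). The signs for Atf4, Atf6 and Ddit3 turned under other scalings of the arrays, as did that of Hspa5, and are given for completeness.

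The ER chaperones, among the most sensitive readouts of this response, also lay close together. Hspa5 encodes BiP, the HSP70 of the ER lumen that holds the sensors inactive. Its level was 8.11, 8.24 and 8.12 on the knockout-labelled and 8.14, 8.09 and 8.18 on the wild-type arrays, with both the highest and the second lowest value in the knockout-labelled group. The difference was 0.019 and its 95% interval, -0.18 to 0.21, runs from 0.886-fold to 1.16-fold (limma). Hsp90b1, the HSP90 of the ER, was at 10.67, 10.71 and 10.72 against 10.72, 10.76 and 10.78. Its groups touch, as knockout-labelled replicate 3 and wild-type replicate 1 have nearly the same level, and the difference was -0.052 (95% interval -0.23 to 0.13). These are the genes whose promoters hold ER stress element I above.

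Sdf2l1 was the member other than Wfs1 whose groups did not overlap, in the opposite direction. It encodes a partner of the ER HSP70 system that is induced by ER stress. Its level was 8.37, 8.23 and 8.42 on the knockout-labelled and 8.22, 8.13 and 8.17 on the wild-type arrays. The gap between knockout-labelled replicate 2 and wild-type replicate 1 was 0.0094, far less than the SD of either group (0.096 and 0.049). The difference of 0.17, or 1.12-fold, did not pass (limma, 95% interval -0.041 to 0.38, adjusted p = 0.652), and its adjusted p ran from 0.574 to 0.906 over all alternatives. Sdf2l1 and Bach1 lie on the same chromosome, 16, at a distance that was not measured here, and Wfs1 lies on chromosome 5. Whether linkage to the targeted locus bears on Sdf2l1 was not tested.

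Herpud1 and Trib3 stand for the degradation arm and the late arm of the response. Herpud1, a component of the ER degradation complex whose promoter holds ER stress element II above, was at 10.44, 10.38 and 10.46 on the knockout-labelled and 10.44, 10.30 and 10.37 on the wild-type arrays. Wild-type replicate 1 lay among the knockout-labelled arrays, and the difference was 0.057 (limma, 95% interval -0.14 to 0.25). Trib3, a pseudokinase gene induced by ATF4 and CHOP, was at 5.53, 5.81 and 5.69 against 5.95, 5.36 and 5.34. Wild-type replicate 1 was the highest of all arrays and the other wild-type arrays the lowest. The difference of 0.12 had the widest interval of the 9 (-0.33 to 0.58), and it was 0.33 without wild-type replicate 1 (adjusted p = 0.544). It was 0.018 and 0.027 without wild-type replicates 3 and 2 and 0.057 without knockout-labelled replicate 2. For Trib3 these arrays therefore set a wide bound, from 0.794-fold to 1.50-fold, while for the other 8 the bounds lay between 0.841-fold and 1.30-fold.

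**Figure D2:**
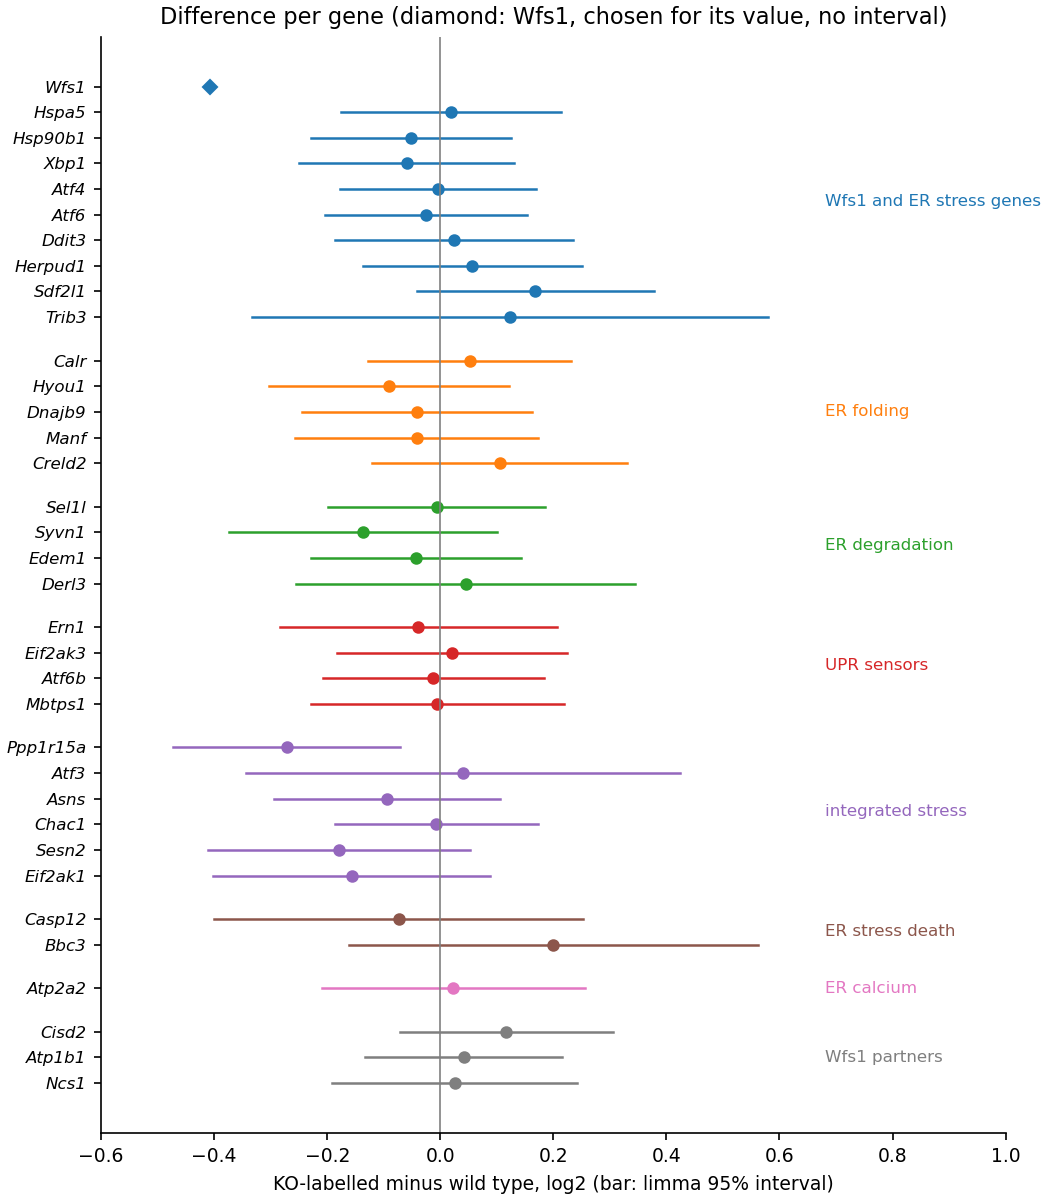
Knockout-labelled minus wild-type difference on the log2 scale (horizontal axis) for the 10 genes and for preset genes of 7 related lists, with limma's 95% interval as bars (n = 3 arrays a group); Wfs1 is a diamond without an interval. Wfs1 lies at -0.41, the other 9 between -0.060 and 0.17 with intervals that span 0, and Ppp1r15a, at -0.27, is the preset gene whose interval lies below 0.

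The wider ER stress pathway was read from 7 lists of 112 genes, of which 104 were measured. Limma called 0 of the 104, against 0.00726% of all probe sets and 1 of 22180 genes. At an unadjusted p under 0.05 there were 2, both lower in the knockout-labelled group. The share was 8.27% of all probe sets, and 1443 of 22180 with each gene counted once. The groups did not overlap for 9 of them, 8.65% beside 14.3% of all genes, 3 higher and 6 lower. By group mean, 44 leaned up and 60 down in the knockout-labelled group, and the median difference was -0.019. The higher share was 42.3%, beside 46.9% of all genes (10407 higher and 11773 lower). Bright genes as a whole read slightly lower on the knockout-labelled arrays, with medians of -0.055 to -0.023 in the upper 5 of 10 bins of mean level. The split was 53 higher and 51 lower after renewed quantile normalization and 25 and 79 with arrays centred on their medians, which moved the median of all genes to -0.057.

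ER folding genes, the chaperones and disulfide isomerases, had 9 higher and 13 lower of 22 measured, with 0 called, 0 at an unadjusted p under 0.05 and a median of -0.031 (limma). The split was 11 and 11 after renewed quantile normalization and 7 and 15 with arrays centred on their medians. Their differences ran from -0.10 to 0.18. Calr, the calcium-binding lectin chaperone calreticulin, was at 11.40 ± 0.033 against 11.35 ± 0.039 (SD, n = 3). Hyou1, an ER HSP70 relative, was at 9.02 ± 0.016 against 9.11 ± 0.11. Dnajb9, an HSP40 cochaperone and target of spliced XBP1, had a difference of -0.042, and the ER stress-induced neurotrophic factor gene Manf had the same value. Creld2, another ER stress-induced gene, had a difference of 0.11 with a 95% interval of -0.12 to 0.33. Only Ssr1, of the translocon-associated complex, separated between the groups (4.55% of the list, against 14.3% of all genes), at -0.10 (limma, adjusted p = 0.786). Like the other genes named below for separating, it was singled out after its values were seen.

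ER-associated degradation genes had 6 higher and 14 lower of 20, with 0 called and a median of -0.046. The split was 8 and 12 after quantile normalization and 2 and 18 after centring. The list's mean log2 level, relative to the wild-type mean, was -0.0309, -0.0729 and -0.0204 on the knockout-labelled arrays. On the wild-type arrays it was -0.00143, 0.0208 and -0.0194. The groups did not overlap, but both replicates 3 were nearly equal. In each of the other related lists this mean overlapped between the groups, and no test was made of it. Sel1l, the scaffold of the HRD1 ligase complex, had a difference of -0.0061, and Syvn1, which encodes HRD1 itself, one of -0.14 (limma, 95% interval -0.37 to 0.10). Edem1, which speeds the degradation of misfolded glycoproteins, was at -0.044, and Derl3, a stress-induced derlin, at 0.045. Faf2, an adaptor that recruits the ATPase p97 to the ER, was 1 of the 2 genes with an unadjusted p under 0.05, at means of 9.32 against 9.54 (difference -0.22, adjusted p = 0.571), and it was named after its value was seen. Faf2 and Derl2 were the 2 genes of this list whose groups did not overlap, both lower. These 2 of 20 are a smaller share than the 14.3% of all genes whose groups did not overlap.

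The sensors and proteases that start the response had 1 higher and 9 lower of 10, with a median of -0.025, 0 called and 0 at an unadjusted p under 0.05 (limma). This split was 5 and 5 after renewed quantile normalization and 0 and 10 after centring. Ern1, which encodes IRE1α, was at 7.68 ± 0.068 against 7.72 ± 0.14 (SD, n = 3). Eif2ak3, which encodes PERK, was at 7.39 ± 0.069 against 7.37 ± 0.069. Atf6b, the relative of Atf6, had a difference of -0.012, and Mbtps1, the site-1 protease that cleaves ATF6, one of -0.0051. Creb3 was the member whose groups did not overlap, at -0.13 (adjusted p = 0.682). This 1 of 10 is a smaller share than the 14.3% of all genes whose groups did not overlap.

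Genes of the integrated stress response, which PERK shares with other eIF2α kinases, had 11 higher and 14 lower of 25, with 0 called and a median of -0.0069. After quantile normalization the split was 13 and 12 and the median 0.018, and after centring the split was 6 and 19. Ppp1r15a encodes GADD34, the stress-induced phosphatase subunit that reverses eIF2α phosphorylation, and was the other gene with an unadjusted p under 0.05. Its level was 6.20, 6.08 and 6.18 on the knockout-labelled and 6.36, 6.42 and 6.49 on the wild-type arrays. The groups did not overlap, with a gap of 0.16, and the difference of -0.27 (95% interval -0.47 to -0.071) did not pass (limma, adjusted p = 0.538). Sesn2, a stress-induced sestrin, also separated, at 6.67, 6.72 and 6.76 against 6.79, 7.04 and 6.86 (difference -0.18, adjusted p = 0.664). Stc2 and Vldlr separated in the higher direction, at 0.18 and 0.064. In all, 4 genes of this list separated (16.0%, against 14.3% of all genes).

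Apart from Ppp1r15a, the genes of this list had differences from -0.25 (Phgdh, of serine synthesis) to 0.18 (Stc2), including Nupr1 at -0.20, Fgf21 at 0.16, Slc7a11 at 0.15 and Shmt2 at -0.13, which were named after their values were seen. Asns, asparagine synthetase, had a difference of -0.095, and Chac1, which degrades glutathione, one of -0.0069. Atf3, a stress-induced factor, was at 5.88 ± 0.27 against 5.84 ± 0.15 (SD, n = 3). Eif2ak1, which encodes the heme-regulated eIF2α kinase HRI, was at 8.81, 8.75 and 9.03 on the knockout-labelled and 9.07, 9.04 and 8.95 on the wild-type arrays. Knockout-labelled replicates 1 and 2 were the lowest and replicate 3 lay among the wild-type arrays, with a difference of -0.16 (limma, 95% interval -0.40 to 0.088, adjusted p = 0.711).

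The lists downstream of the response and around wolframin had 0 called and 0 at an unadjusted p under 0.05 (limma). Cell death genes tied to ER stress had 5 higher and 4 lower of 9, and 4 and 5 under either other scaling. Bbc3, which encodes the BH3-only protein PUMA, was at 5.69 ± 0.24 against 5.49 ± 0.15, and the ER caspase gene Casp12 at 4.50 ± 0.19 against 4.57 ± 0.16 (SD, n = 3), among the dimmest 40% of probe sets. ER calcium genes had 7 higher and 5 lower of 12, and 5 and 7 after centring. Atp2a2, the main ER calcium pump of neurons, had a difference of 0.023. Partners of wolframin had 5 higher and 1 lower of 6, and 1 and 5 with arrays centred on their medians. Cisd2, the second Wolfram syndrome gene, was at 7.18, 7.23 and 7.31 against 7.15, 7.10 and 7.11. Its groups separated by 0.022, with a difference of 0.12 (limma, 95% interval -0.072 to 0.31, adjusted p = 0.72). Cisd2 alone separated among the partners (16.7%, against 14.3% of all genes). The sodium pump subunit gene Atp1b1 and the calcium sensor gene Ncs1 had differences of 0.041 and 0.025. Pdia4 and Itpr1 were not analysed here.

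**Figure D3:**
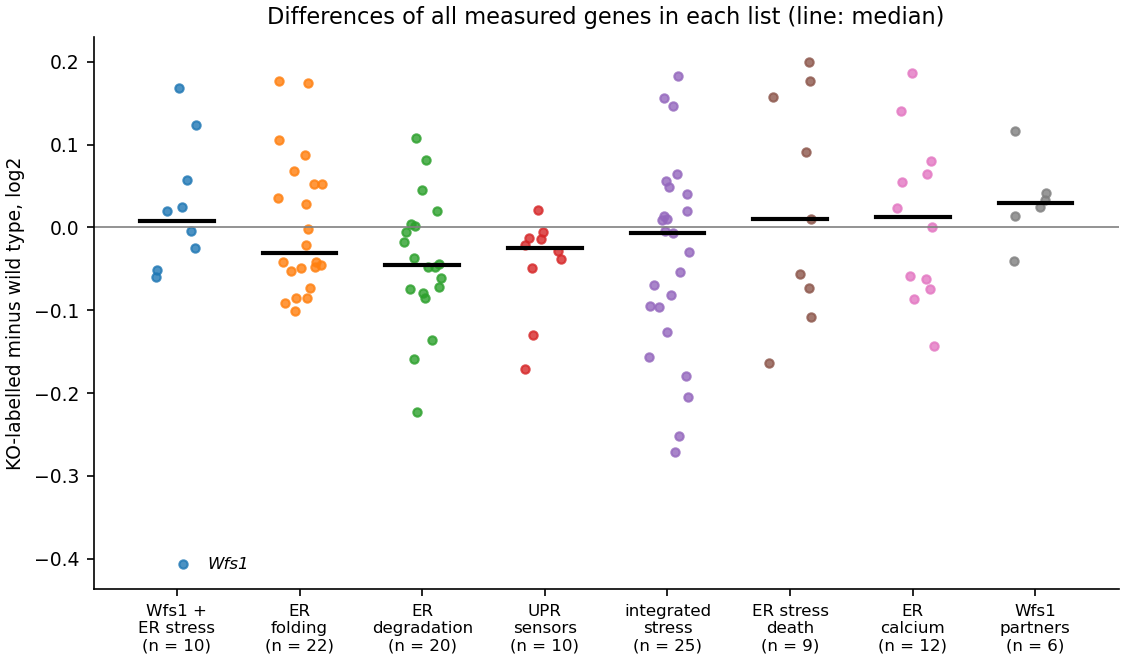
Knockout-labelled minus wild-type difference on the log2 scale (vertical axis) of each measured gene (points) in the 10 genes and in 7 related lists, with the list median as a line; points are spread sideways for visibility. Medians lie between -0.046 and 0.029, Wfs1 lies alone at -0.41, and the lowest gene of the 7 lists, Ppp1r15a, is at -0.27.

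Markers of neighbouring regions that express Wfs1 or could enter the dissection were read beside it. Of 9 measured striatal markers 7 had a lower mean in the knockout-labelled group, 0 were called (limma), and all 9 exceeded the dim level of 5.07. Their score, the mean log2 level relative to the wild-type mean, read -0.0072, -0.25 and -0.18 for knockout-labelled replicates 1, 2 and 3, against -0.25, 0.12 and 0.13 for wild type. The groups overlap in this score. Wild-type replicate 1 was the lowest wild-type array in both the score and Wfs1. The neuropeptide genes Tac1 and Pdyn had differences of -0.66 and -0.40, and the other 7 markers ran from -0.13 (Drd1) to 0.086 (Pde10a). The part of striatal tissue in the Wfs1 difference was not tested.

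Of 13 cortical and hippocampal markers 8 were higher and 5 lower, 0 were called, and 12 exceeded the dim level. Between the groups 3 separated (23.1%, against 14.3% of genes). These were Fibcd1, higher at 0.37, and Lamp5 and Rasgrf2, lower at -0.23 and -0.28. Rasgrf2 alone had an unadjusted p under 0.05 (limma), against 8.27% of all probe sets. The score of the 13 markers spanned -0.17 to 0.41 among knockout-labelled replicates and -0.17 to 0.17 among wild-type ones. Knockout-labelled replicate 2 had the highest score of all arrays. All 15 measured hypothalamic and pituitary markers were lower, with 0 called and a median of -0.65. Of these, 3 had an unadjusted p under 0.05 (limma, the hormone genes Trh, Gnrh1 and Prl), against 8.27% of all probe sets and 1443 of 22180 genes. Between the groups 4 separated (26.7%, against 14.3% of genes). Trh, at -1.59, had the lowest difference of all 22180 genes. The dim level was exceeded by 13, and not by Prl and Cga. Their score spanned -1.24 to -0.46 among knockout-labelled replicates and -0.53 to 0.59 among wild-type ones. The overlap rests on knockout-labelled replicate 1, at -0.458, and wild-type replicate 1, at -0.525. Without either of them the groups would not overlap in this score. The part of these cells in the Wfs1 difference was not tested.

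**Figure D4:**
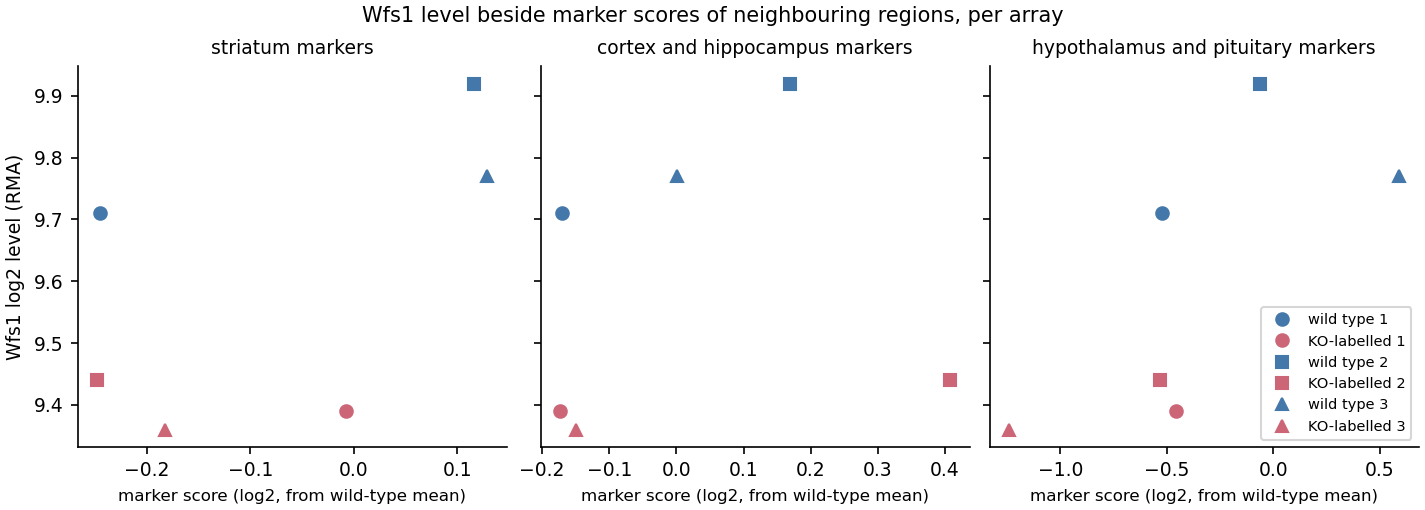
Wfs1 log2 RMA level (vertical axis) against the score of striatal, cortical and hippocampal, and hypothalamic and pituitary markers (horizontal axes, log2 relative to the wild-type mean), 1 point per array, blue for wild type and red for knockout-labelled. The scores of the groups overlap in each panel. In the hypothalamic and pituitary panel only knockout-labelled replicate 1 and wild-type replicate 1 cross. Wild-type replicate 1 has the lowest wild-type value of Wfs1 and of each score.

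Scores of cell types within the midbrain overlapped between the groups. Dopamine neuron markers were higher in 14 of 16, with scores of -0.064 to 0.31 in the knockout-labelled group against -0.11 to 0.064 in wild type. Astrocyte scores ran from -0.029 to 0.0052 against -0.036 to 0.044, microglial scores from -0.081 to 0.071 against -0.018 to 0.0098, and oligodendrocyte scores from -0.18 to 0.089 against -0.058 to 0.097. Endothelial and mural markers were lower in 10 of 12 (scores of -0.32 to -0.022 against -0.078 to 0.080), and meningeal and choroid markers in 8 of 12 (-0.17 to -0.031 against -0.42 to 0.31). Limma called 0 genes of these 6 lists. An unadjusted p under 0.05 (limma) was reached by Aldh1a1 (0.26), Siglech (-0.34) and Pdgfrb (-0.30), against 8.27% of all probe sets. Groups did not overlap for 12.5% of dopamine neuron, 18.2% of microglial and 8.33% of astrocyte markers, against 14.3% of all genes. The share was 8.33% for endothelial and mural markers and 0% for the oligodendrocyte list and the meningeal and choroid list. The part of these 6 lists in the Wfs1 difference was not tested.

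The 6 genes whose levels were most like that of Wfs1 over the 6 arrays were taken from 4162 genes in the brighter part of the range with an SD at least 50% of that of Wfs1. They were Nxpe4 (Pearson r = 0.989), Idua (0.983), Usp27x (0.978), 1700086L19Rik (0.978), Zfp449 (0.976) and Pkia (0.974). Idua encodes a lysosomal iduronidase and Pkia an inhibitor of protein kinase A. Each of the 6 was lower on every knockout-labelled array, with differences from -0.43 (1700086L19Rik) to -0.21 (Zfp449). With 6 arrays in 2 separated groups these correlations mainly restate that difference, and no test was made.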

How the data were processed

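Ventral midbrain RNA of 3 Bach1 knockout-labelled and 3 wild-type samples was measured, grouped by the genotype in the labels. The authors deposited log2 levels per probe set, processed with RMA per the submitters' processing notes; version, annotation and genome build are not given in the sources used here. RMA equalises arrays, so a shift of most genes would be removed. There were 0 unused columns. Of 41345 probe sets, 23521 had 1 gene in the platform annotation, 1814 several and 16010 none; symbols were updated through Entrez to RefSeq (GRCm38.p6) for 23328. Each gene was its brightest probe set.

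All probe sets were tested with limma 3.58.1 in R 4.3.3 (lmFit and eBayes, no covariates; prior degrees of freedom 2.21; 95% intervals), with calls at a p under 0.05 after Benjamini-Hochberg adjustment, and the script was checked on simulated data. Array number limits precision. Members and lists were chosen with earlier results of these data known. Named were all members, preset index genes of each list, any called list gene and the 6 genes most like Wfs1. Genes named for separating groups or for an unadjusted p were singled out afterwards. Lists held 240 genes, 225 measured. Alternatives were an intensity trend, renewed quantile normalization, median centring, a filter on dim probe sets, array weights, the mean of a gene's probe sets, replicate number as a block and leaving out each array.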

Additional observations from a re-analysis of the deposited data

How the results depend on the processing

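Limma called 0 of the 9 ER stress genes and 0 of the 104 pathway genes under any of 13 alternatives. The Wfs1 difference was -0.45 to -0.35 over them, which only describes the values on which it was selected. Of 35 gene results with a test, 17 kept their sign in all alternatives run and 18 did not, and the smallest adjusted p over all of these was 0.45. The number of called probe sets was 0 with the replicate block and 0 whichever array was left out, and the block changed no call of a member or pathway gene. Deviations of same-numbered arrays correlated at 0.086, -0.033 and 0.040, and 3 of 6 arrays correlated best with their own number, so the numbers were not taken as pairs. Casp12 has no value without dim probe sets. The cause of the changes of sign was not tested. The number of arrays, 3 a group, limits the precision.

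With arrays centred on their medians, differences were -0.0276 for Hspa5, -0.0228 for Ddit3, -0.00227 for Derl3, -0.026 for Eif2ak3, -0.00686 for Atf3, -0.0238 for Atp2a2, -0.00593 for Atp1b1 and -0.0218 for Ncs1. List medians then were -0.0783 (folding), -0.0926 (degradation), -0.0719 (sensors), -0.054 (integrated stress), -0.0362 (death), -0.0349 (calcium), -0.018 (partners) and -0.0664 (all 104 genes). After renewed quantile normalization, differences were 0.0341 for Atf4, 0.016 for Atf6, 0.014 for Sel1l, 0.00282 for Ern1, 0.0219 for Atf6b, 0.0388 for Mbtps1 and 0.0373 for Chac1, and medians -0.0203 (degradation), -0.0551 (death) and 0.00831 (all 104 genes). The medians of folding (0.0055), sensors (0.000455) and integrated stress (0.018) also turned sign there. With array weights Mbtps1 was at 0.00261.

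With single arrays left out, ranges that crossed 0 were -0.0215 to 0.0408 for Hspa5, -0.0151 to 0.00641 for Atf4, -0.0338 to 0.0544 for Ddit3, -0.0793 to 0.0131 for Dnajb9, -0.0998 to 0.000423 for Manf, -0.044 to 0.0182 for Sel1l, -0.0379 to 0.139 for Derl3, -0.0845 to 0.0423 for Ern1, -0.0184 to 0.059 for Eif2ak3, -0.058 to 0.0158 for Atf6b, -0.055 to 0.0531 for Mbtps1, -0.0562 to 0.191 for Atf3, -0.0317 to 0.0138 for Chac1, -0.155 to 0.0308 for Casp12, -0.0307 to 0.0765 for Atp2a2 and -0.0087 to 0.0792 for Ncs1. Medians ranged from -0.0335 to 0.00697 (folding), -0.0519 to 0.0737 (death) and -0.0226 to 0.019 (calcium).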
